A study of Mus musculus with 6 samples.

Results

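The deposited gene table of N9 microglia lists 2826 genes typed as antisense among 54532 genes, and 67 of them, chosen by their measured counts, averaged 20 or more over the 6 libraries. These 67 well-counted antisense noncoding RNAs are described here, each beside the protein-coding gene whose annotated span it overlaps on the opposite strand. The GENCODE M21 annotation also types 66 of them as antisense, and BC051226 as a noncoding RNA of a bidirectional promoter. The N9 cells, microglia of mouse brain that were immortalized as a line, grew in RPMI medium with fetal bovine serum and antibiotics, and every library came from this 1 line. The control group (n = 3) was left untreated, and the LPS group (n = 3) received lipopolysaccharide, the outer-membrane glycolipid of Gram-negative bacteria, at 1 µg/ml for 6 h. RNA-seq was used to ask how LPS changed the transcriptome. Nothing in the labels says that the replicates were separate cultures, so each p-value measures only the spread between these libraries.

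An antisense RNA is transcribed from the strand opposite to another gene. Some start beside the promoter of that gene, or further inside the gene, and run out from its 5′ end (head to head). Some run toward its 3′ end (tail to tail), and others begin and end within one of its introns. Individual antisense RNAs are known to silence or to maintain a neighbouring gene, as Airn and Kcnq1ot1 do in genomic imprinting, but most have no known function, and a large share of antisense transcripts is made at low level and removed in the nucleus by the RNA exosome. In microglia and macrophages LPS acts through TLR4, which turns on NF-κB targets such as cytokines within hours and, through secreted type I interferon, the interferon-stimulated genes.

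The 6 libraries held 16363767 to 17956772 counts, of which the 67 antisense RNAs together took 0.0375% to 0.0410%. Their mean count ran from 20.2 to 1180.5 with a median of 38.5, against a median of 527 over the 12296 genes that passed the filter on low counts. All 67 passed it. The minimum of 20 counts used the same libraries as the comparison below, and it was met through 1 group alone by 10 of the 67: 4 had a mean under 20 counts in the control libraries only and 6 in the LPS libraries only. Just inside the minimum stood 3010003L21Rik, Gm10138 and Gm26674, with means of 20.2, 20.2 and 20.3 counts. Just outside it stood Gm13012, Gm15726 and Gm4419, with 19.3, 18.8 and 18.0. Of the genes on either side of the minimum, only Gm15726 was called. It was higher with LPS (log2 fold change 1.05, edgeR adjusted p = 0.0315) without overlap of the groups, and was called in 5 of 11 alternatives. Defining microglial genes were present, with 11 of 14 microglia and macrophage markers passing the filter and a summed counts-per-million (CPM, after TMM scaling) level of 2043 to 2107 in control and 2252 to 2311 in LPS libraries. Of these 11, 3 were called higher, 3 lower and 5 not called, with log2 fold changes (log2FC, LPS against control) from -1.62 to 0.58. Among markers of other cell types, 3 of 4 T cell and 2 of 3 B cell genes were at 0 in every library. The 5 hepatocyte genes summed to between 0.117 and 19.5 CPM in control and between 0.061 and 0.548 in LPS libraries. The 5 astrocyte markers summed to between 27.2 and 29.2 CPM in control and between 21.3 and 24.9 in LPS libraries, and the 1 that was tested was lower (log2FC -0.29). The 5 neuron markers summed to between 26.3 and 27.8 in control and between 27.7 and 32.3 in LPS libraries, with 1 of the 2 tested higher (1.67) and 1 lower (-0.41). The 5 oligodendrocyte markers summed to between 33.4 and 39.8 in control and between 27.9 and 29.5 in LPS libraries, with the 1 tested lower (-0.34) and 2 at 0 in every library. The part of these signals in any result below was not tested.

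Sequences around the starts of 7 of the 8 antisense RNAs called higher are shown first, since the starts decide which bases each RNA shares with its partner. Promoter windows are those of RefSeq on GRCm38.p6, from 250 bases before to 50 bases after a start, written 5′ to 3′ on the strand of the named gene. RefSeq windows matched 37 of the 67 antisense RNAs and 60 of their 71 partners by symbol. The first 2 windows belong to partners, Oasl1 at chr5:114922990-114923289 (plus strand) and Hmga1 at chr17:27556324-27556623 (plus strand). Capitals mark the bases that lie inside the spans of both genes of the pair in the deposited table, 38 bases for Oasl1 and Gm13822 and 22 bases for Hmga1 and AC127341.3. Read on the other strand, those capitals are the first bases of the antisense gene. The RefSeq start of Oasl1 coincides with that of the table, while this RefSeq start of Hmga1 lies 77 bases further downstream, so the 22 capitals lie before it.
Oasl1: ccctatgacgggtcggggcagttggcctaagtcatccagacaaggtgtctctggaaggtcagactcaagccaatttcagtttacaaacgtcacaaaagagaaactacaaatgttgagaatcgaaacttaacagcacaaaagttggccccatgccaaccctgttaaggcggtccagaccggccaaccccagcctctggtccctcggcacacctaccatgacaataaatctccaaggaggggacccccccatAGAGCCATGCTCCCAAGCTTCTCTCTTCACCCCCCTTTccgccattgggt
Hmga1: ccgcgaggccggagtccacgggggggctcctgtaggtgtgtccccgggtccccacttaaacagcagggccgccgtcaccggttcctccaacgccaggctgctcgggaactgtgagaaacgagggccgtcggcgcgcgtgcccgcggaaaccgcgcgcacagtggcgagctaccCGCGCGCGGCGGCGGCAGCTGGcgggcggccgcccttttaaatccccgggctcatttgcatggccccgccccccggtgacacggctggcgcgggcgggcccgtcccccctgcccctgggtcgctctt

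The next 3 windows belong to antisense RNAs whose libraries separated by group, A530040E14Rik at chr1:85105843-85106142 (plus strand), 5830432E09Rik at chr7:135652265-135652564 (minus strand) and Map2k3os at chr11:60931818-60932117 (minus strand). Capitals mark the 50 bases from the RefSeq start onward. The RefSeq start of A530040E14Rik lies 147 bases from the start in the deposited table, and those of 5830432E09Rik and Map2k3os coincide with it.
A530040E14Rik: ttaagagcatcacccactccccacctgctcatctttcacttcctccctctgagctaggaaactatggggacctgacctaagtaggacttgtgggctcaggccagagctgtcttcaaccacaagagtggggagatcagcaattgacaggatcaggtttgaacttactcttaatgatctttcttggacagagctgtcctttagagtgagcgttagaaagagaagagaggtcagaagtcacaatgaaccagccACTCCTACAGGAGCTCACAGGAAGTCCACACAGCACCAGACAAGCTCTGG
5830432E09Rik: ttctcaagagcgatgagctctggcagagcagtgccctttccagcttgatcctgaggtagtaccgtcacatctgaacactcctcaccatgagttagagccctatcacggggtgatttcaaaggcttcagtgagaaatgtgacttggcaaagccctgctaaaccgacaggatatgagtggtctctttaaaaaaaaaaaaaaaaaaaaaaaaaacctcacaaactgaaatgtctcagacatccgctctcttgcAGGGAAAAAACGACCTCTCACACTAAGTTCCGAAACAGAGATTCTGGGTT
Map2k3os: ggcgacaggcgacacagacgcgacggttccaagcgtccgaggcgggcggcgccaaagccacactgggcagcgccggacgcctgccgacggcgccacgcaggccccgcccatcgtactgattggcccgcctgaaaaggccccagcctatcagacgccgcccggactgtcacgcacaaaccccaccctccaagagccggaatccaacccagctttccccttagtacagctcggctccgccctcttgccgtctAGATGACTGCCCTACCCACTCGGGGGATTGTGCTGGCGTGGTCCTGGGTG

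Neither 4930430E12Rik nor Faddos has a RefSeq window, so the first 150 bases of the longest GENCODE M21 transcript are given, with the first exon in capitals. This transcript of 4930430E12Rik has 901 bases in 4 exons, the first of 106 bases, and lies at chr4:6352105-6357530 (minus strand). That of Faddos has 1053 bases in 2 exons, the first of 162 bases, and lies at chr7:144567355-144581512 (plus strand), so all 150 bases shown for it are exon 1.
4930430E12Rik: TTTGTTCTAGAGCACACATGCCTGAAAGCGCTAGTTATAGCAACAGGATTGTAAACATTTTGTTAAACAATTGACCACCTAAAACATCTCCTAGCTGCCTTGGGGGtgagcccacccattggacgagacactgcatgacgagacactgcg
Faddos: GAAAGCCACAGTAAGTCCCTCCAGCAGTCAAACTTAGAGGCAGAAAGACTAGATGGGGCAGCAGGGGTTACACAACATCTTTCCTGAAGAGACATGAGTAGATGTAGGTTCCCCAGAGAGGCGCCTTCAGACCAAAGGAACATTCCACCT

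Short motifs of LPS-responsive factors were searched on both strands of the windows. The core of the interferon-stimulated response element (GAAA, any 2 bases, GAAA) was in 3.44% of all 32851 mouse RefSeq windows, the NF-κB consensus in 4.51% and the AP-1 motif (TGANTCA) in 7.81%. Of the 37 antisense RNAs with a window, 3 held the first, 1 the second and 3 the third. The called antisense RNAs with a window were Gm13822, A530040E14Rik, 5830432E09Rik, Gm15496, Map2k3os and A830082K12Rik, and none of their windows held any of these letters. Of the 60 partners with a window, 2, 3 and 6 did, among them Oasl1 with an NF-κB match, GGGGGTCCCC, on the complement strand from 14 to 5 bases before its start. No matches of different motifs overlapped. A match describes letters and not a bound site.

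LPS changed 12 of the 67 antisense RNAs, 8 upward and 4 downward (edgeR quasi-likelihood test, adjusted p under 0.05 over all 12296 genes). That is 17.9%, below the 34.3% of all genes tested that were called. In all genes 18.7% were called higher and 15.7% lower. Genes of other classes were called in 36.8% (protein-coding, 11042 tested) and 13.5% (lincRNA, 185 tested), and antisense genes under the minimum of 20 counts in 10.9% (55 tested). The share of calls differed by mean count. Of the 43 antisense RNAs with a mean under 50 counts 4 were called (9.3%, against 19.6% of 647 protein-coding genes in that range), and of the 24 with at least 50 counts 8 were called (33.3%, against 33.7% of 6483 protein-coding genes up to the same highest count). The median standard error of log2FC was 0.26 for the 67 and 0.082 for all genes tested. The median log2FC was -0.03 for the 67 and 0.0036 for all genes. Past both thresholds that the study used for differentially expressed genes, adjusted p under 0.05 and an absolute log2FC over 1.5, were 3 of the 67 (4.48%, against 2.65% of all genes, 2.4% upward and 0.252% downward), namely Gm13822, A530040E14Rik and Faddos, each higher with LPS. Of these, Gm13822 and Faddos met the minimum of 20 only through the LPS group, with control means of 5.33 and 11 counts. The groups did not overlap in any library for 20 of the 67 (29.9%, against 45.3% of all genes tested). Of the 57 antisense RNAs that reached a mean of 20 in each group separately, 9 were called (6 higher, 3 lower) and 1 passed both thresholds (1.75%, beside the 2.65% above).

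**Figure D1:**
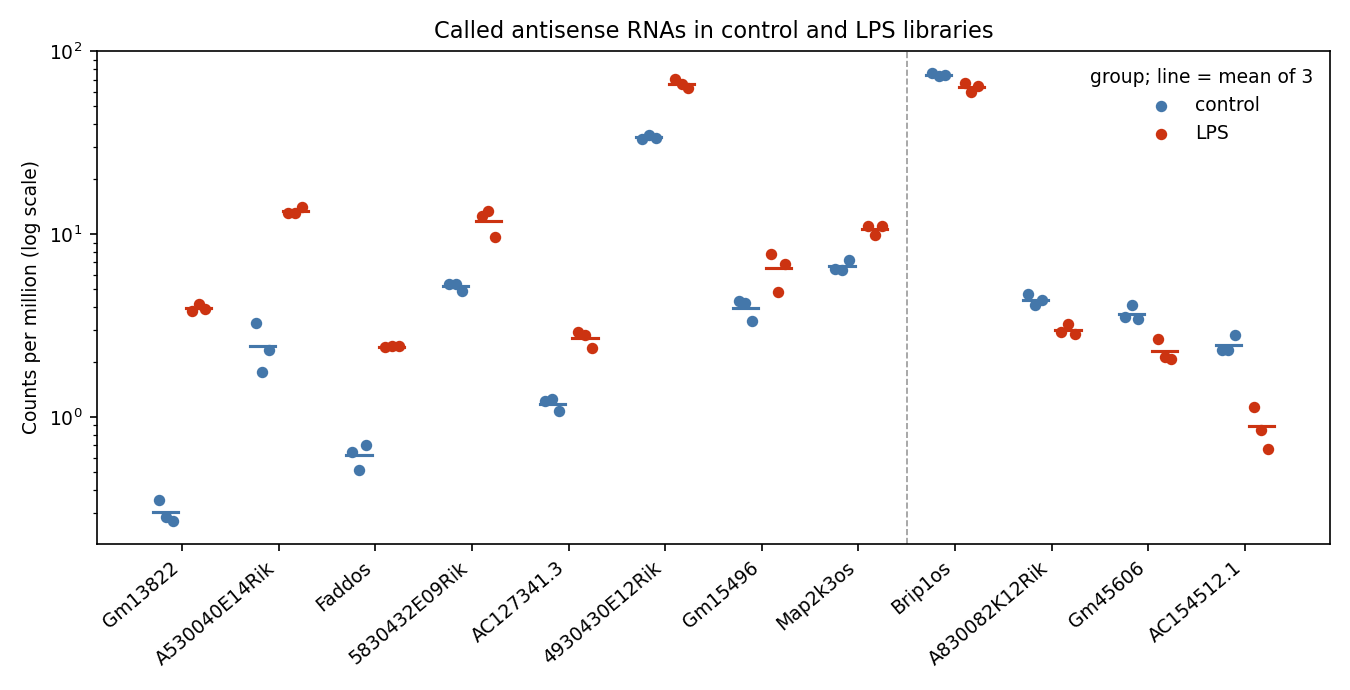
CPM (log axis) of the 12 called antisense RNAs in each library, with 3 control points (blue) and 3 LPS points (red) per gene and a line at each mean. The 8 genes left of the dashed line were higher with LPS and the 4 right of it lower, and in none of the 12 do the points of the groups overlap.

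Gm13822 rose most. It is a 2-exon gene at chr5:114917318-114923277 (mm10, minus strand) that starts head to head with Oasl1, an interferon-induced oligoadenylate synthetase-like gene of antiviral defence. It had 6, 5 and 5 counts in control libraries and 60, 68 and 64 counts with LPS. Every LPS library was far above every control library, and the minimum of 20 was met through the LPS group alone. The level in CPM went from 0.301 ± 0.043 to 3.95 ± 0.178 (SD, n = 3 each), a 12.9-fold rise (log2FC 3.69, SE 0.31, edgeR adjusted p = 2.2e-07). Oasl1 had 549, 475 and 531 counts in control and 9998, 10951 and 10071 in LPS libraries, a 21.9-fold rise (log2FC 4.45, SE 0.06, edgeR adjusted p = 6.3e-16). Both genes of this pair thus rose, and the log2FC of Gm13822 was lower than that of Oasl1 by a difference of -0.86 (95% interval -1.57 to -0.14), which did not pass the test over all pairs (limma adjusted p = 0.0853). Per kilobase, Gm13822 stood at 7.77% of the level of Oasl1 in control libraries. RefSeq starts Gm13822 1016 bases further from Oasl1 than the deposited table does, so the 38 shared bases printed above are in the gene models of the table and of GENCODE M21 and not in that of RefSeq.

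A530040E14Rik had the next largest rise. Its 7 exon blocks at chr1:85105946-85114035 (plus strand) lie wholly within the span of C130026I21Rik, with 85.2% of the exon bases in introns of the partner. Counts were 56, 31 and 43 in control and 206, 214 and 230 in LPS libraries. The LPS libraries were close together and all above the control libraries, which themselves ranged from 31 to 56. The level rose 5.47-fold, from 2.45 ± 0.765 to 13.4 ± 0.549 CPM (log2FC 2.45, SE 0.18, edgeR adjusted p = 4.5e-08). C130026I21Rik rose too, from 394, 423 and 422 to 1121, 1107 and 1161 counts (log2FC 1.59, SE 0.06). The antisense RNA rose more than this partner, by 0.90 on the log2 scale (95% interval 0.45 to 1.34, limma adjusted p = 0.00464), and this difference was not called when limma was fitted without a variance trend. A further overlapping protein-coding gene, A530032D15Rik, starts head to head with it and rose from 3, 4 and 6 to 47, 49 and 39 counts (log2FC 3.47, SE 0.37), and that difference from the antisense RNA did not pass the test (-0.92, interval -1.85 to 0.01, limma adjusted p = 0.159). Of the longest transcript of A530040E14Rik, 75.2% matched 72 other annotated genes at 95% identity or more over at least 100 bases, up to 40.1% for Gm10552 alone, so its count is uncertain where reads could be split among these copies. Near copies of partners were not searched for. The promoter windows of C130026I21Rik and A530032D15Rik share long runs of bases, so the counts of these partners, and both differences above, may carry the same uncertainty.

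Faddos also rose, and its partner did not pass the test. Faddos runs tail to tail into Fadd, the adaptor that links death receptors such as Fas and TNF receptor complexes to caspase-8. Counts of Faddos were 11, 9 and 13 in control and 38, 40 and 40 in LPS libraries. All LPS libraries were above all control libraries, with little spread among them, and the minimum of 20 was met through the LPS group alone (mean 39.3 counts, against 11 in control). The rise was 3.89-fold, from 0.617 ± 0.097 to 2.43 ± 0.017 CPM (log2FC 1.96, SE 0.30, edgeR adjusted p = 1.4e-04). Fadd had 366, 411 and 425 counts in control and 371, 340 and 320 in LPS libraries, and the groups overlapped (log2FC -0.08, SE 0.09, edgeR adjusted p = 0.526). The difference between the 2 responses was 2.02 (95% interval 1.33 to 2.72, limma adjusted p = 2.1e-04). In exon bases, 22.7% of Faddos lay on exons of the opposite strand and 61.9% in the intron of Fadd.

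Both 5830432E09Rik and its partner rose. The gene, at chr7:135635931-135652314 (minus strand), sits within Ptpre, which encodes the receptor-type tyrosine phosphatase epsilon, with 96.6% of its exon bases in introns of Ptpre. Counts were 92, 94 and 91 in control and 198, 219 and 158 in LPS libraries. The 3 control values were nearly equal, and the lowest LPS value was above all of them. The log2FC was 1.19 (SE 0.15, edgeR adjusted p = 1.6e-05), and that of Ptpre 1.03 (SE 0.07, edgeR adjusted p = 9.5e-09), with 700, 699 and 863 counts in control and 1291, 1480 and 1444 in LPS libraries. The difference was 0.13 with a 95% interval from -0.22 to 0.49 (limma adjusted p = 0.644).

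AC127341.3 rose more than its partner. It is annotated as a single exon of 10812 bases at chr17:27545707-27556518 (minus strand), head to head with Hmga1, which encodes an architectural chromatin protein with AT-hooks. AC127341.3 had 21, 22 and 20 counts in control and 46, 46 and 39 in LPS libraries, with no overlap of the groups (log2FC 1.19, SE 0.26, edgeR adjusted p = 0.00243). Hmga1 was among the most abundant partners, with 8773, 8363 and 8903 counts in control and 8322, 9163 and 8839 in LPS libraries (log2FC 0.15, SE 0.04, edgeR adjusted p = 0.0115). The responses differed by 1.02 (95% interval 0.44 to 1.59, limma adjusted p = 0.0117), which was not called without LPS replicate 1. Hmga1 itself was not called without control replicate 2, control replicate 3 or LPS replicate 2. Its raw counts overlapped between the groups and separated only as CPM (474 to 512 in control and 527 to 559 in LPS libraries). Per kilobase the antisense RNA stood at 0.0476% of Hmga1 in control libraries, the lowest ratio of all pairs.

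**Figure D2:**
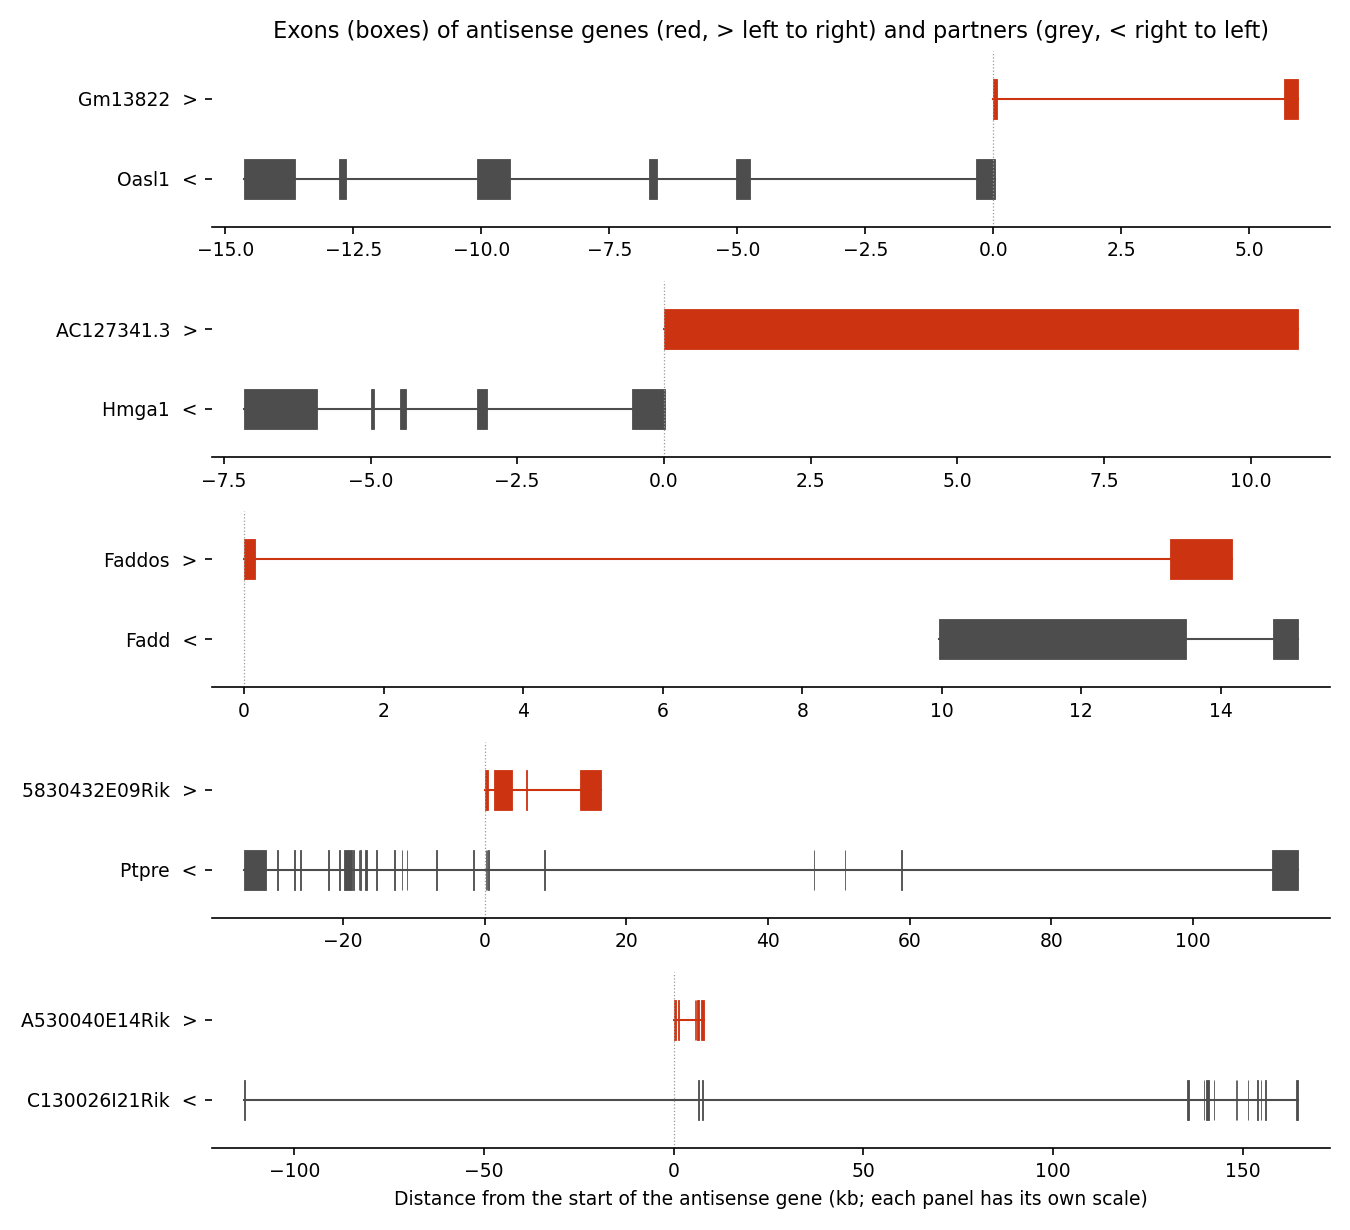
Exon maps of 5 pairs, with exons as boxes, introns as lines and distance from the start of the antisense gene in kb on the x axis, each panel with its own scale. Antisense genes (red) run left to right and partners (grey) right to left: Gm13822 and AC127341.3 share only 38 and 22 bases with the partner at their starts, Faddos overlaps 81.5% of the span of Fadd from its 3′ end, and 5830432E09Rik and A530040E14Rik lie within the partner.

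The antisense RNA with the most counts among the 8 that rose has no overlapping protein-coding gene on the other strand. 4930430E12Rik had 570, 613 and 622 counts in control and 1108, 1089 and 1029 in LPS libraries. The groups were far apart compared with their spread, and the fold change was 1.96 (log2FC 0.97, SE 0.06, edgeR adjusted p = 9.1e-09). The nearest protein-coding gene on the other strand was Sdcbp, which encodes the adaptor protein syntenin, 8119 bases away, and it was higher with LPS by a log2FC of 0.30 (SE 0.04, edgeR adjusted p = 6.1e-05). Of the longest transcript of 4930430E12Rik, 13.1% matched 1 other gene, Gm48306. Nearest neighbours were added for the 7 antisense RNAs without a partner after the data had been seen.

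Map2k3os, an opposite-strand RNA named for Map2k3, which encodes the kinase upstream of p38 in inflammatory signalling, rose 1.59-fold. Counts were 111, 113 and 134 in control and 174, 162 and 181 in LPS libraries, without overlap (log2FC 0.67, SE 0.12, edgeR adjusted p = 6.9e-04). The table places its start 166 bases from the start of Map2k3 with 165 bases between the 2 genes, so they share no base. Map2k3 rose as well (log2FC 0.36, SE 0.05, edgeR adjusted p = 2.0e-05). A like arrangement was found for BC051226, 96 bases from Daxx, which encodes a transcriptional co-repressor and histone chaperone. Daxx rose by a log2FC of 1.62 (SE 0.06, edgeR adjusted p = 1.9e-11), while BC051226, with 20, 18 and 22 counts in control and 37, 32 and 16 in LPS libraries, had a log2FC of 0.64 (SE 0.35, edgeR adjusted p = 0.182) and overlapping groups. LPS replicate 3, at 16 counts, made the groups overlap, and BC051226 was called higher without it. Ttc39aos1, 467 bases from Ttc39a, had 47, 34 and 40 counts in control and 41, 23 and 25 in LPS libraries (log2FC -0.31, SE 0.29, edgeR adjusted p = 0.467), while Ttc39a fell with a log2FC of -0.74 (edgeR adjusted p = 0.00138). The differences in response between these neighbours were not tested.

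Gm15496 was the last of the 8 that rose. It lies head to head with Slc7a14, a solute carrier of the cationic amino acid transporter family. Its start lies inside Slc7a14, 24791 bases from the start of that gene, and 79.2% of its span overlaps Slc7a14. Its exons hardly do, with 98.1% of the exon bases outside Slc7a14, 1.91% in its introns and 0 on exons of the other strand. Counts were 74, 74 and 62 in control and 123, 79 and 113 in LPS libraries. LPS replicate 2 was only just above the control libraries (log2FC 0.72, SE 0.20, edgeR adjusted p = 0.0111), and the call was lost without control replicate 3 or LPS replicate 1, with the highest adjusted p over all alternatives at 0.0618. Slc7a14 had 66, 67 and 63 counts in control and 70, 68 and 47 in LPS libraries (log2FC 0.05, SE 0.21). The difference was 0.67 (95% interval 0.15 to 1.18, limma adjusted p = 0.0636), which was called without LPS replicate 2 and with a replicate block.

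AC154512.1 had the largest fall. It lies at chr16:27317944-27326641 (minus strand) within Ostn, which encodes the secreted peptide osteocrin, and 91.6% of its exon bases are in introns of Ostn. Counts were 40, 41 and 52 in control and 18, 14 and 11 in LPS libraries. Each LPS library was below each control library, and the minimum of 20 was met through the control group alone (mean 44.3 counts, against 14.3 with LPS). The log2FC was -1.48 (SE 0.30, edgeR adjusted p = 0.00124). Ostn had 2 counts in control replicate 1 and 0 in the other libraries, so it was not tested, and the antisense RNA was the only one of the pair with measurable counts.

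Gm45606 and A830082K12Rik fell together with their partners. Gm45606, a single-exon gene at chr11:75530277-75533071 (minus strand), starts within Slc43a2, which encodes a transporter of large neutral amino acids. It had 60, 72 and 64 counts in control and 42, 35 and 34 in LPS libraries, which did not overlap (log2FC -0.68, SE 0.22, edgeR adjusted p = 0.0245). Slc43a2 went from 2323, 2343 and 2503 to 1416, 1483 and 1580 counts (log2FC -0.54, SE 0.05, edgeR adjusted p = 2.5e-07), and the difference was -0.14 (95% interval -0.62 to 0.35). For Gm45606, 33.0% of the exon bases lie on exons of the other strand. A830082K12Rik, at chr13:78198017-78279391 (plus strand), starts head to head within Nr2f1, which encodes the orphan nuclear receptor COUP-TF1. It had 81, 72 and 81 counts in control and 46, 53 and 47 in LPS libraries, again without overlap (log2FC -0.55, SE 0.19, edgeR adjusted p = 0.0341). Nr2f1 went from 175, 189 and 201 to 141, 134 and 117 counts (log2FC -0.39, SE 0.12, edgeR adjusted p = 0.0242), with a difference of -0.15 (95% interval -0.58 to 0.28). These were the weakest of the 12 calls. With DESeq2 the adjusted p was 0.0840 for Gm45606, 0.129 for A830082K12Rik and 0.0819 for Nr2f1. The call of Nr2f1 was also lost without control replicate 2, control replicate 3, LPS replicate 2 or LPS replicate 3. Over all alternatives the adjusted p ran from 0.0207 to 0.0884 for Gm45606, not called without control replicate 2, LPS replicate 2 or LPS replicate 3, and from 0.0317 to 0.129 for A830082K12Rik, called in only 1 of the 6 fits that left out a library, the one without control replicate 2.

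Brip1os had the highest mean count of the 67 (1180.5) and the smallest called change. Named for the DNA repair helicase gene Brip1, it spans chr11:86201370-86304443 (plus strand) and contains Ints2, a subunit of the Integrator complex that ends transcription of noncoding RNAs. Counts were 1301, 1285 and 1386 in control and 1058, 986 and 1067 in LPS libraries. All control libraries were above all LPS libraries, and the log2FC was -0.22 (SE 0.05, edgeR adjusted p = 0.00562). Ints2 had 960, 1092 and 1003 counts in control and 867, 892 and 845 in LPS libraries (log2FC -0.10, SE 0.06, edgeR adjusted p = 0.267), with a difference of -0.12 (95% interval -0.30 to 0.05). Its other partner, Med13, a subunit of the Mediator kinase module, overlaps it tail to tail and rose (1188, 1466 and 1383 counts in control and 1327, 1533 and 1534 in LPS libraries, log2FC 0.26, SE 0.07, edgeR adjusted p = 0.00703). Set against Med13 the responses differed by -0.48 (95% interval -0.67 to -0.28, limma adjusted p = 9.1e-04). This was the only overlap of a called antisense RNA with a partner called in the other direction, and it is not among the pairs counted below, which take the partner with the longest overlap.

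**Figure D3:**
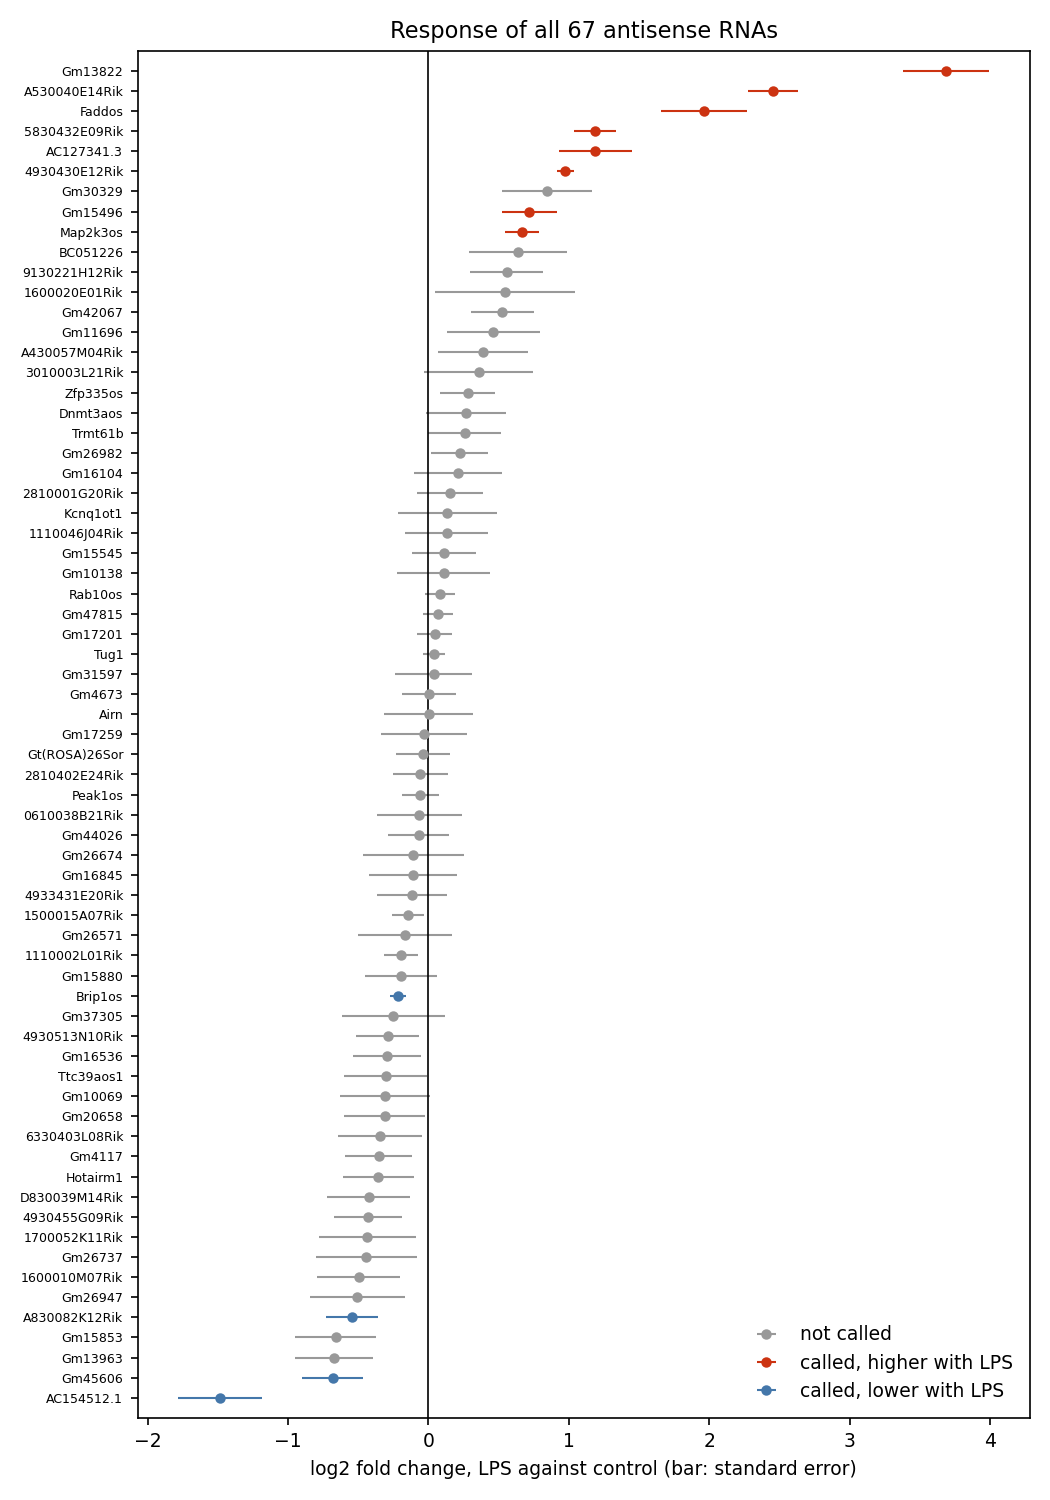
The log2FC of LPS against control for all 67 antisense RNAs in order of size, with standard errors as bars. The 8 called higher (red) reach 3.69 and the 4 called lower (blue) reach -1.48, while the 55 not called (grey) lie between -0.67 and 0.84.

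The 55 antisense RNAs that did not pass the test had log2FC values from -0.67 to 0.84, with standard errors from 0.078 to 0.498. Only 7 of these standard errors were under 0.15, so for most of the 55 the data do not distinguish a moderate change from none. In 8 of the 55 the groups did not overlap (14.5%, against 18.1% of all genes tested that were not called). Gm30329 had the highest value among them (12, 19 and 16 counts in control and 25, 23 and 29 in LPS libraries, log2FC 0.84, SE 0.32, edgeR adjusted p = 0.0552). Some well-known noncoding RNAs were measured more precisely. Tug1, an abundant nuclear and cytoplasmic noncoding RNA that starts head to head with Morc2a, had 769, 991 and 964 counts in control and 795, 830 and 922 in LPS libraries. These ranges overlap, and its log2FC was 0.04 (SE 0.08, edgeR adjusted p = 0.745), while Morc2a rose by a log2FC of 0.18 (SE 0.05, edgeR adjusted p = 0.00931). The difference between them was -0.14 (95% interval -0.34 to 0.05).

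The imprinted antisense RNAs were near the minimum. Airn, which silences Igf2r on the paternal chromosome, had 22, 22 and 33 counts in control and 25, 28 and 17 in LPS libraries (log2FC 0.00, SE 0.32). The groups overlapped. Igf2r, the receptor for insulin-like growth factor 2 and mannose 6-phosphate, rose by a log2FC of 0.28 (SE 0.09, edgeR adjusted p = 0.0299), with a difference of -0.29 whose 95% interval ran from -1.02 to 0.43. Kcnq1ot1, the antisense RNA of the Kcnq1 imprinting domain, had 13, 35 and 22 counts in control and 21, 24 and 25 in LPS libraries (log2FC 0.13, SE 0.35), and Kcnq1 was too low to be tested. Hotairm1, a myeloid noncoding RNA, had 48, 38 and 49 counts in control and 30, 27 and 39 in LPS libraries. LPS replicate 3 lay within the control range (log2FC -0.36, SE 0.25, edgeR adjusted p = 0.305), and 31.8% of its longest transcript matched 2 other genes. Gt(ROSA)26Sor, the transcript of the locus widely used for mouse transgenes, had 106, 81 and 84 counts in control and 62, 89 and 90 in LPS libraries (log2FC -0.04, SE 0.19).

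Of the 67, 8 carry the suffix os for opposite strand: Brip1os, Rab10os, Map2k3os, Peak1os, Zfp335os, Faddos, Ttc39aos1 and Dnmt3aos. Of these, 3 were called (37.5%, against 34.3% of all genes), Faddos and Map2k3os upward and Brip1os downward. Rab10os had 341, 350 and 388 counts in control and 298, 328 and 416 in LPS libraries, with overlapping groups (log2FC 0.08, SE 0.11), while Rab10, a small GTPase of membrane traffic, rose by a log2FC of 0.17 (SE 0.04, edgeR adjusted p = 0.00591). Peak1os had 119, 134 and 145 counts in control and 113, 122 and 113 in LPS libraries (log2FC -0.06, SE 0.13), and Peak1, a pseudokinase of the cytoskeleton, had a log2FC of -0.02 (SE 0.06). The remaining os RNAs had log2FC values of 0.28 (SE 0.20) for Zfp335os and 0.27 (SE 0.29) for Dnmt3aos, beside -0.07 (SE 0.06) for Zfp335 and -0.10 (SE 0.04) for the DNA methyltransferase gene Dnmt3a. None of these values passed the test.

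Level was compared between genes only per kilobase of the gene length in the table, as CPM per kilobase. The 5 highest antisense RNAs over all libraries were 4930430E12Rik (44.2), Gm17201 (37.8), Brip1os (10.7), Gm47815 (6.85) and Map2k3os (6.72). This order differed by group. In control libraries Gm17201 (37.2) was above 4930430E12Rik (29.8), and Peak1os (5.89) above Map2k3os (5.19). In LPS libraries Gm13822 (11.4) was above Brip1os (9.86). Gm17201 lies within Ankrd52, a regulatory subunit of protein phosphatase 6, and had 212, 270 and 294 counts in control and 200, 255 and 274 in LPS libraries (log2FC 0.05, SE 0.13). It stood at 92.6% of the per-kilobase level of Ankrd52 in control libraries and at 100.4% in LPS libraries. Of its exon bases, 59.5% lie on exons of the other strand. Gm47815, within introns of Sobp, had 200, 195 and 206 counts in control and 197, 177 and 200 in LPS libraries (log2FC 0.07, SE 0.11), while Sobp was too low to be tested. Among 56 antisense RNAs whose partner had a mean of at least 1 count, the level in control libraries was below that of the partner for 44 and above it for 12, with a median of 17.8% of the partner.

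**Figure D4:**
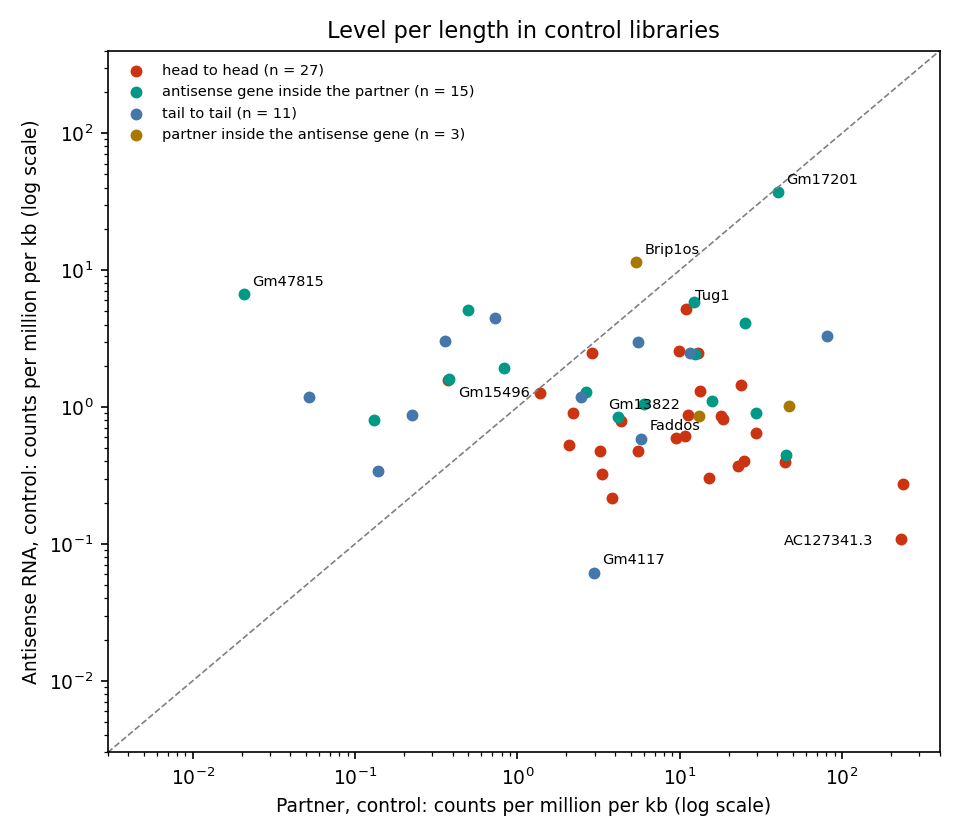
CPM per kilobase in control libraries (both axes logarithmic) of 56 antisense RNAs against their partner with the longest overlap, coloured by arrangement, with a dashed line of equal level. The 44 points below the line are antisense RNAs with a level under that of the partner, and AC127341.3 lies furthest below it.

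Of the 67, 60 overlapped at least 1 protein-coding gene on the other strand, and 9 of these overlapped several, giving 71 pairs with 71 partners. By the partner with the longest overlap, 27 were head to head, 18 lay within the partner, 12 were tail to tail and 3 contained the partner. In 52 pairs both genes passed the filter. The antisense RNA was called in 9 of these (17.3%, beside 34.3% of all genes tested) and the partner in 24 (46.2%, beside 36.8% of protein-coding genes). Over all 1251 opposite-strand pairs of the table the shares of the first and second gene were 26.8% and 31.7%. Those pairs take genes of every class, protein-coding ones included, with every overlapping partner. Where both genes are protein-coding, their order follows the gene identifier alone. Shares over all 1251 pairs, here and below, are thus not on equal terms with those of the 52. Both were called in the same direction in 6 pairs (11.5%, against 6.39% of all 1251 opposite-strand pairs of the table), 4 upward (Gm13822 and Oasl1, A530040E14Rik and C130026I21Rik, 5830432E09Rik and Ptpre, AC127341.3 and Hmga1) and 2 downward (Gm45606 and Slc43a2, A830082K12Rik and Nr2f1). That count was 3 without control replicate 2 and 3 without LPS replicate 2. It includes Hmga1, whose log2FC was only 0.15 (SE 0.04). It also includes Gm13822, which met the minimum of 20 only through the LPS group, where it is high (control mean 5.33 counts). The choice of members thus favoured this pair, and 11.5% and 6.39% are not on equal terms. Both were called in opposite directions in 0 pairs by edgeR (against 2.64%), in 0 by DESeq2 and in 0 at an unadjusted p under 0.05 for both genes, where 9 pairs shared a direction. The antisense RNA alone was called in 3 and the partner alone in 18, together 40.4% of the pairs against 40.4% of all 1251, and neither was called in 25 (48.1%, against 50.6%). Of the 6 pairs that moved together, 4 were head to head (of 27) and 2 had the antisense RNA within the partner (of 14). The responses of the 2 genes were called different in 3 pairs (5.77%, against 19.9% of all pairs): Faddos, A530040E14Rik and AC127341.3, each with the antisense RNA higher. Faddos met the minimum of 20 only through the LPS group, where it is high (control mean 11 counts), and that choice favours a difference in this direction. The median half-width of the 95% interval of a difference was 0.62, so a pair whose difference did not pass the test is not shown to respond alike.

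**Figure D5:**
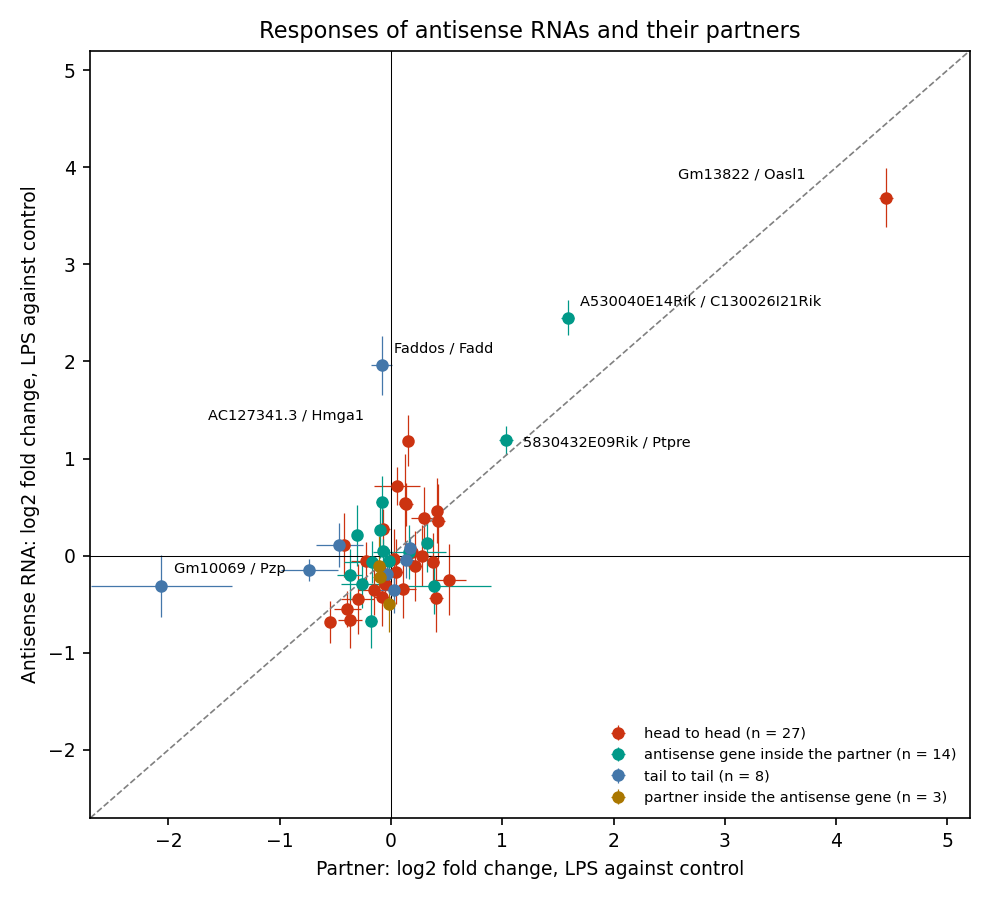
The log2FC of LPS against control for the antisense RNA (y axis) and its partner (x axis) in 52 pairs, with standard errors as bars, colours by arrangement and a dashed line of equal response. Gm13822 and Oasl1 lie at the top right, Faddos stands above a partner near 0, and most other pairs cluster around the origin.

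Across the 52 pairs the log2FC values of antisense RNA and partner had a Pearson r of 0.74 and a Spearman rho of 0.42. This is a description across pairs that share the same 6 libraries and may share reads, with no test. Without the 2 pairs with the largest antisense change, Gm13822 and A530040E14Rik, r was 0.32 and rho 0.35 (n = 50). Within arrangements r was 0.87 and rho 0.51 for the 27 head-to-head pairs, 0.85 and 0.44 for the 14 antisense RNAs within a partner and 0.24 and 0.12 for the 8 tail-to-tail pairs. Without Gm13822 the head-to-head pairs had r of 0.43 and rho of 0.46 (n = 26), and without A530040E14Rik those within a partner had r of 0.62 and rho of 0.30 (n = 13). Several partners moved while the antisense RNA did not pass the test. Tlk2, a chromatin assembly kinase, rose by a log2FC of 0.41 (SE 0.06) beside 1700052K11Rik at -0.44 (SE 0.35), and the difference was -0.86 (95% interval -1.61 to -0.11, limma adjusted p = 0.0983), which was called without LPS replicate 1. Gna13, a G protein alpha subunit, rose by 0.41 (SE 0.05) beside Gm11696 at 0.46 (SE 0.33). Pzp, a protease inhibitor of the alpha-2-macroglobulin family, fell from 14, 21 and 12 counts to 0, 3 and 7 (log2FC -2.06, SE 0.63), beside Gm10069 at -0.31 (SE 0.32), and the difference of 2.36 had a 95% interval from 0.54 to 4.17 (limma adjusted p = 0.0636), which was called without LPS replicate 3 and with a replicate block. Of the longest transcript of Gm10069, 22.6% matched 9 other genes, so its count is uncertain in part.

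Whether the counts were made by strand is not given in the sources used here, and without strand the reads of a gene and of its antisense partner over shared bases cannot be told apart. For 65 of the 67, whose span is the same in GENCODE M21, the exons were compared with those of the other strand. A median of 8.55% of the exon bases lay on exons of the other strand, 4 of the 65 had more than 50% there and 21 had more than 50% of their exon bases in introns of a partner. As a check on the counting, 32 antisense genes of the table had at least 90% of their exon bases on exons of an opposite-strand gene that averaged at least 1000 counts, and 31 of them had 0 counts in every library, with a highest mean of 0.33. Counting by strand and counting without strand that drops reads shared by both genes would each give such values and cannot be told apart here. Counts and per-kilobase levels of genes with many bases on opposite-strand exons, such as Gm17201 with 59.5%, may therefore leave those bases out. For antisense RNAs within introns, such as 5830432E09Rik, A530040E14Rik and AC154512.1, the part of unspliced partner RNA in the count was not tested. Fewer cells and less RNA per cell also cannot be told apart in these bulk libraries.

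Gene lists were used to place the partners. They were chosen with earlier results of these data known, so their shares of calls describe the lists and test nothing. Over all genes tested 18.7% were called higher. Of 56 tested interferon-stimulated genes all 56 were called higher (median log2FC 3.08), and 1 of them, Oasl1, is a partner. Of 46 tested NF-κB and inflammatory genes 45 were called higher (median log2FC 1.62), and the 1 that was not is Fadd, the partner of Faddos. The machinery that trims, ends or degrades nuclear noncoding RNA was taken as a further list. Of its 38 tested genes 5 were called higher and 3 lower, with a median log2FC of -0.0025 and a range from -0.37 to 0.37. Higher were Pcf11 (log2FC 0.37, SE 0.06), a termination factor, Ints12 (0.30, SE 0.07), Exosc4 (0.27, SE 0.07), Exosc3 (0.20, SE 0.07) and the nuclear exonuclease Xrn2 (0.16, SE 0.05). Among the lower were Zcchc8 (-0.37, SE 0.06), a subunit of the nuclear exosome targeting complex, and Exosc8 (-0.20, SE 0.06). The 8 called genes are beside a background of 34.3%. Ints2 is the 1 gene of this list that is a partner.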

How the data were processed

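RNA-seq libraries of N9 microglia, 3 untreated and 3 LPS-treated, were analysed from the table of raw counts per gene that the authors deposited, with library totals of 16363767 to 17956772. The submitters' processing notes name featureCounts 1.5.0-p3 and mm10. The aligner, the annotation release and the strand setting are not given in the sources used here, and the study states DESeq2 for its own test. A second deposited table holds the authors' own comparison with 18 columns of values per sample, none of which was used here. Groups and replicate numbers came from the sample titles.

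The members and gene lists were chosen with earlier results of these data known. Antisense genes averaging 20 counts or more were paired with protein-coding genes on the other strand by overlapping spans, taking the longest overlap. Genes were filtered (filterByExpr, 12296 left), scaled by TMM and tested with the quasi-likelihood test of edgeR 4.0.16 in R 4.3.3 (prior count 0.125, no covariate, Benjamini-Hochberg over all genes tested, called at an adjusted p under 0.05). The difference between the responses of a pair was tested with limma 3.58.1 on the log2 ratio of both genes per library (prior count 0.5, variance trend), adjusted over all 1251 opposite-strand pairs. With 3 against 3 libraries a permutation of the samples could not go below p = 0.1, so the fits across all genes were used. Reads carry no molecular identifiers as far as the sources say, so counting error alone does not cover duplicated molecules. Simulated counts took the mean levels and depths of these libraries, with 1 assumed dispersion for every gene. Changed genes were drawn from all genes averaging 20 counts or more. For LPS against control, edgeR recovered 93 of 100 genes changed by 1 on the log2 scale and 100 of 100 changed by 2. It made 14 false calls (12298 genes). DESeq2 recovered 83 and 100 of 100, with 17 false calls (21184 genes), and limma 14 of 19 and 20 of 20 pairs, with 0 false calls (1254 pairs). These rates are not those of the antisense RNAs, whose median count was 38.5 against 527 over all genes tested.

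Genes were named by these rules: called antisense RNAs whose libraries did not overlap, the 5 highest levels per kilobase, the 3 on either side of the minimum, pairs called different, pairs called in opposite directions, symbols ending in os, and the partners of all these. Tug1, Airn, Kcnq1ot1, Hotairm1, Gt(ROSA)26Sor, Gm30329, BC051226, the nearest neighbours and the further partners were added after their values had been seen. Exons came from GENCODE M21, promoter windows from RefSeq GRCm38.p6, and near copies from blastn 2.17.0. Alternatives were RLE scaling, DESeq2 1.42.0, other filters and prior counts, robust dispersion, a replicate block, other pairing rules, other minimums and leaving out each library. Single results of some partners and listed genes are not reported here.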

Additional observations from a re-analysis of the deposited data

How the results depend on the processing

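None of the 12 called antisense RNAs changed direction under any alternative, nor did the called partners that were followed through the alternatives. Directions of the other genes named above, such as Med13, Igf2r, Tlk2, Daxx and Pzp, were not compared. The 12 called antisense RNAs were the same genes with RLE scaling, with no filter, with a filter at a mean of 10 counts and with robust dispersion. DESeq2 called 10 of them, with 2 lower in place of 4, and lost Gm45606 and A830082K12Rik. With members at a mean of at least 50 counts, 5 were higher and 1 was past both thresholds, since fewer genes entered. With members at a mean of at least 20 counts in each group, an alternative chosen after seeing the data, 1 was past both thresholds. With the partner of most counts in place of the longest overlap, 1 pair, Brip1os and Med13, was called in opposite directions. With an overlap of at least 0.5 of the antisense span, 2 pairs were called in the same direction, since fewer pairs entered.

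Leaving out each library in turn gave 10 to 12 called (7 to 9 higher, 2 to 3 lower), 3 to 4 past both thresholds, 3 to 5 pairs called in the same direction, 0 in opposite directions and 3 to 4 pairs with different responses. Gained were 1600020E01Rik without control replicate 2 and BC051226 without LPS replicate 3, and, as pairs with different responses, those of 1700052K11Rik without LPS replicate 1, Gm15496 without LPS replicate 2 and Gm10069 without LPS replicate 3. The lowest count of same-direction pairs, 3, came without control replicate 2 and without LPS replicate 2, and 2 lower calls remained without LPS replicate 2 or LPS replicate 3. AC154512.1 passed both thresholds in some of these fits, with log2FC from -1.70 to -1.32. For the named genes and their partners, 430 results kept their side of the threshold, 30 lost the call and 2 gained it.

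Whether the replicate numbers pair control and LPS libraries is not given in the labels. The deviations of same-numbered control and LPS libraries correlated at 0.14, 0.059 and -0.0042. Those of libraries with different numbers correlated at -0.144 to 0.0912. These values do not decide whether the samples were paired. With the number as a replicate block 11 antisense RNAs were called, A830082K12Rik being lost (adjusted p = 0.0510 in edgeR), and 5 pairs had different responses, Gm10069 and Gm15496 being gained. Without the variance trend the limma test called Gm13822 and 9130221H12Rik and not A530040E14Rik, and with a prior count of 2 it called Gm13822 as well. The median standard error of log2FC was 0.26 for the 67 and 0.082 for all genes tested. At 20 to under 50 counts 9.3% of the antisense RNAs and 19.6% of protein-coding genes were called, and the part of depth in these shares was not tested.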
